A study of Mus musculus with 2 samples.

Results

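Toll-like receptors and the proteins that help them sense lipopolysaccharide (LPS) were examined on arrays that compared activated mouse B cells carrying a miR-181b vector with B cells carrying a control vector. The group holds 10 genes, taken by gene name from the array's own annotation: Tlr1, Tlr2, Tlr4, Tlr6, Tlr7, Tlr9, Cd14, Ly96, Cd180 and Ly86. The rule for membership is the gene name alone, among 27670 gene names on the array, although the group was picked for description with earlier results of these data known. They are represented by 12 probes, 1 each for 8 genes and 2 each for Tlr4 and Cd180. A probe was taken as measured where the scanner software called it well above background in all 4 readings, those of each RNA on each array. At least 1 probe of each gene was measured, and 11 of the 12 probes in all.

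The cells of both groups were primary B lymphocytes from spleens of C57BL/6 mice, enriched by removing CD43-positive cells. Both were grown with 25 µg/ml LPS, which activates B cells through Tlr4, and with 10 ng/ml interleukin-4. Retrovirus was added for 20 h with 8 µg/ml polybrene, and cells positive for GFP were sorted 2 days later. The control group carried the control-GFP vector and the other group the miR181b-GFP vector, so that LPS was present in both. There was 1 RNA sample per vector, and the labels do not say how many mice gave the cells. Both RNAs were hybridised together on 2 arrays of the same slide with the dyes exchanged, so the arrays are technical repeats of 1 biological replicate. No test between the vectors is possible with this design, and every difference below describes this pair of RNA samples.

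Toll-like receptors are membrane proteins that recognise microbial molecules and signal through an intracellular TIR domain to the adaptors MyD88 and TRIF. Tlr2 forms pairs with Tlr1 or Tlr6 on the cell surface and senses bacterial lipopeptides. Tlr4 senses LPS with Ly96 (MD-2), to which Cd14 hands over the ligand. Cd180 (RP105) resembles Tlr4 outside the cell but has no TIR domain, pairs with Ly86 (MD-1) and is prominent on B cells. Tlr7 and Tlr9 sit in endosomes and recognise single-stranded RNA and CpG DNA, and both are well known activators of mouse B cells.

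The expressed microRNA and 3 of the array probes are given below, 5′ to 3′. In the microRNA, from RefSeq (GRCm38.p6), the capitals mark the seed, bases 2 to 8. The Tlr1 and Tlr2 probes belong to receptors that pair with each other, and the Tlr2 probe is spotted 10 times per array. The Cd180 probe shown is the one designed on the RefSeq transcript, whose values differed from those of the other Cd180 probe. The probe letters are those of the scanner files.
mmu-miR-181b-5p: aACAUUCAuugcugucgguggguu
Tlr1: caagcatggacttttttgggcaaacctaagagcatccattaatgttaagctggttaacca
Tlr2: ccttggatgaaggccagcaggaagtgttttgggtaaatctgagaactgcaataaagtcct
Cd180: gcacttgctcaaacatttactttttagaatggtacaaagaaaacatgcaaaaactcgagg

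A match to the seed, TGAATGT, was found in 0 of the 12 probe sequences, and 0.954% of all probes on the array contained it, searched on the strand given in the files. With the shorter match GAATGT, which lies within TGAATGT, the figures were 0 of 12 and 2.56%. A probe covers 60 bases of a transcript, so its letters do not say whether the rest of the transcript has a match. The longest run of bases shared by any pair of the 12 probes was 8, between Cd180 and Tlr7.

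Values are normalised intensities on a linear scale and log2 ratios of miR-181b over control. A single ratio is the mean of array 1 (miR-181b RNA in Cy5) and array 2 (miR-181b RNA in Cy3), and ± gives how far each array lay from it, which is technical spread. Of 41174 probes on the array 25810 were measured. Their median ratio was -0.006 on array 1, and -0.004 on array 2. The SD of their mean ratios was 0.19 and the median distance of an array from the mean was 0.10. A probe was counted as higher or lower where its mean ratio reached 1.5-fold and the arrays had the same sign. In bulk RNA, fewer cells that express a gene cannot be told apart from less RNA per cell.

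Markers of B cells, the labelled cell type, and of other cells were read as ratios between the RNAs. Such ratios do not show which cells gave the RNA. All 10 B cell markers were measured, and 2 of them were saturated. Their median ratio was 0.21, from -0.27 on array 1 to 0.70 on array 2, and it was -0.22 without the correction for a trend with intensity (loess), where all genes had a median of -0.20. Of the 10, 2 were above 0 on both arrays, against 24.4% of all measured genes, and 0 were below 0 on both, against 27.4%. The antigen receptor subunit gene Cd79a was the 1 marker counted as 1.5-fold higher, at 0.86 ± 0.70 (0.16 on array 1 and 1.56 on array 2), against 0.819% of all genes. T and natural killer cell markers (8 of 10 measured) had a median of 0.04, dendritic cell markers (5 of 8) of 0.03, and granulocyte and mast cell markers (3 of 8) of -0.10.

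None of the 11 measured probes was counted as 1.5-fold higher (0 of 11, against 0.713% of all measured probes) or lower (0 of 11, against 0.430%). Their mean ratios ran from -0.32 for Tlr6 to 0.28 for the RefSeq probe of Cd180. In size these differences lay at or below 1.25-fold. The median ratio of the 11 probes was 0.06 (array 1 gave 0.06, array 2 gave 0.08). On both arrays 6 probes were higher in the miR-181b RNA, against 23.8% of all measured probes, and 3 were lower, against 26.2%. The Tlr2 probe and the cDNA probe of Cd180 had opposite signs on the arrays, against 50% of all measured probes. Without the intensity-dependent (loess) correction, ratios were centred on all non-control spots, dim ones included, and the median of all measured probes was -0.182. On that scale 9 of the 11 probes were below 0, which is not the centre of the measured probes. Relative to that median they ran from -0.38 for Tlr6 to 0.23 for Cd14 and the RefSeq probe of Cd180. By gene, 7 of 10 members were lower on both arrays and 1 was higher, against 9716 and 1591 of 17577 genes.

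**Figure D1:**
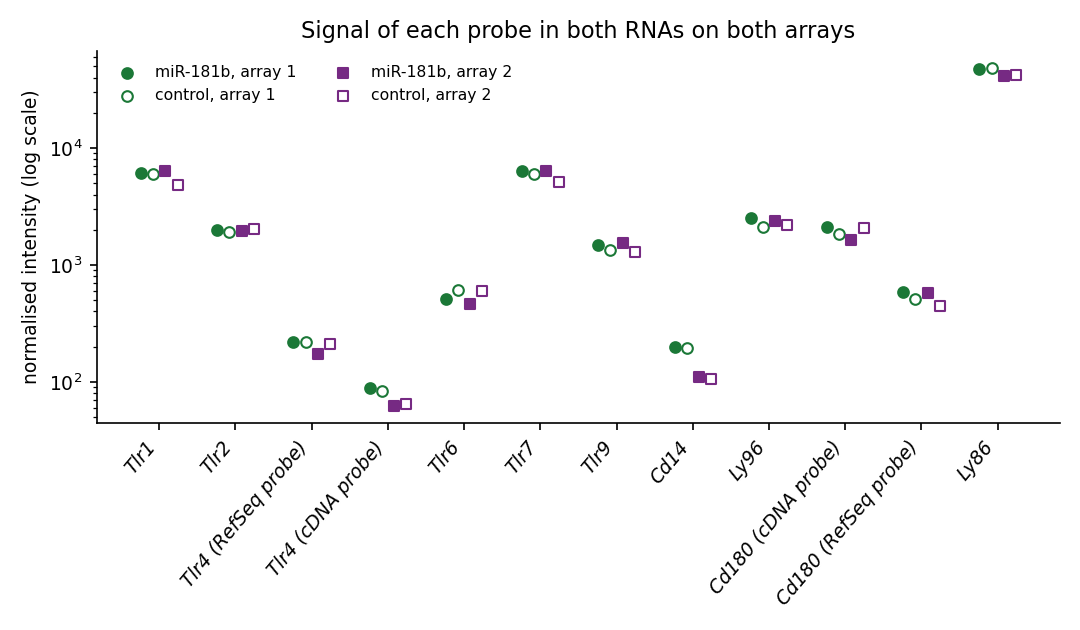
Normalised intensity (log axis) of each of the 12 probes in the miR-181b RNA (filled) and the control RNA (open), on array 1 (circles) and array 2 (squares). Within a probe the RNAs lie close together on each array, while probes differ in brightness for technical reasons also and are not compared with each other; the cDNA probe of Tlr4 was not well above background.

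Among Tlr2 and its partners was the lowest value of the family. Tlr6, the partner with which Tlr2 recognises diacylated lipopeptides, read 507 in the miR-181b RNA and 612 in the control RNA on array 1. On array 2 it read 467 and 602. The miR-181b RNA was thus the dimmer on each array. The log2 ratio of Tlr6 was -0.27 on array 1 and -0.37 on array 2, with a mean of -0.32 ± 0.05, or 1.25-fold lower. Of all measured probes 3.04% had a lower mean ratio, and 11.5% of probes in the same intensity decile differed by more in either direction. Tlr6 is singled out here as the lowest of 11 probes, so these shares do not measure how unusual it is. The value was negative in all 8 other settings that used both arrays, from -0.56 to -0.31. Without loess it was -0.38 relative to the median of all probes and -0.31 relative to that of its intensity decile.

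Tlr1, the partner for triacylated lipopeptides, read 6090 with miR-181b and 6026 in the control on array 1, and 6385 and 4863 on array 2. The RNAs were nearly level on array 1 and apart on array 2. Its ratio was 0.02 and 0.39, with a mean of 0.20 ± 0.19, so that the spread was nearly as large as the mean. Without loess it was -0.17, which is 0.01 above the median of all probes and 0.20 above that of its intensity decile. Tlr1 and Tlr6 are neighbouring genes, with 0 other protein-coding genes between them in RefSeq. The ratio of Tlr1 exceeded that of Tlr6 by 0.29 on array 1 and by 0.76 on array 2, or 0.52 on the mean. This difference between genes rests on 1 probe each and was not tested.

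Tlr2, the shared subunit, read 2006 with miR-181b and 1921 in the control on array 1, and 1953 and 2020 on array 2. The order of the RNAs turned with the dyes. The ratio was 0.06 on array 1 and -0.05 on array 2, with a mean of 0.01 ± 0.06. The probe has 10 spots on each array, which give the precision of a single hybridisation. On array 1 the spots lay between 0.04 and 0.08 (SD 0.01, n = 10 spots), and all 10 were above 0. On array 2 they lay between -0.09 and -0.01 (SD 0.02, n = 10 spots), and all 10 were below 0. The spots of each array thus agreed closely with each other while the arrays disagreed in sign. Tlr2 had the mean ratio nearest to 0 of all members, and 97.1% of probes of similar intensity differed by more.

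**Figure D2:**
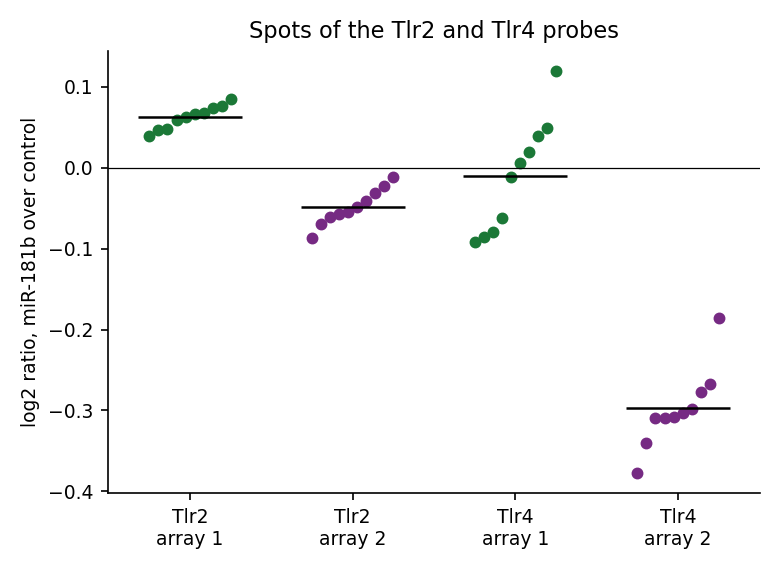
Log2 ratio of miR-181b over control for each of the 10 spots of the Tlr2 probe and of the measured Tlr4 probe on array 1 (green) and array 2 (purple), sorted by value; black lines are means. The Tlr2 spots are all above 0 on array 1 and all below 0 on array 2, and the Tlr4 spots straddle 0 on array 1 and lie between -0.38 and -0.19 on array 2.

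Of the LPS receptor itself, Tlr4 had 2 probes. The probe designed on its RefSeq transcript read 218 with miR-181b and 220 in the control on array 1, and 172 and 211 on array 2. These signals were faint, at 2.99 to 4.09 times the local background. The ratio was -0.01 on array 1 and -0.30 on array 2, with a mean of -0.15 ± 0.14, or 1.11-fold lower. Its 10 spots were split on array 1, with 5 above and 5 below 0 (range -0.09 to 0.12, SD 0.07, n = 10 spots). On array 2 all 10 were below 0 (range -0.38 to -0.19, SD 0.05, n = 10 spots). The lower value of Tlr4 thus came from array 2, where miR-181b RNA carried Cy3. For comparison, the median SD between spots was 0.0532 on array 1 and 0.0459 on array 2 over the 160 measured probes with at least 5 spots. The other Tlr4 probe, designed on a cDNA clone from neonatal skin, was not well above background in any channel, at 1.15 to 1.3 times the local background, and gives no ratio.

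Ly96, the MD-2 subunit that binds LPS, read 2505 with miR-181b and 2127 in the control on array 1, and 2390 and 2189 on array 2. The miR-181b RNA was the brighter on each array. The ratio was 0.24 and 0.13, with a mean of 0.18 ± 0.05, or 1.13-fold higher, and 34.6% of probes of similar intensity differed by more. Without loess it was -0.16, which is 0.03 above the median of all probes and 0.18 above that of its intensity decile. Cd14, the coreceptor that is best known from monocytes and macrophages, read 199 and 193 on array 1, and 111 and 105 on array 2. Its signals were faint, at 1.92 to 3.27 times the local background. Its ratio was 0.04 and 0.08, with a mean of 0.06 ± 0.02, and it was 0.17 with the scanner's own log ratio. On the mean, Tlr4 was below 0 and Ly96 and Cd14 were above 0. Tlr4 was level on array 1 (-0.01, with its spots split), Cd14 was faint and near 0, and Ly96 was below 0 without loess. Whether Tlr4 and its coreceptors share a sign is therefore not settled.

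Macrophages express Tlr4 and Cd14 strongly, so markers of that cell type were read beside them. Of 10 macrophage and monocyte markers 6 were measured, and Fcgr1, Mrc1, C1qa and Ccr2 were not. The median of the 6 was -0.06, at 0.01 on array 1 and at -0.21 on array 2. The lysozyme gene Lyz2 was the lowest at -0.49 ± 0.07, and the integrin gene Itgam was the highest at 0.27 ± 0.10, with 0.05 from its other probe. The growth factor receptor gene Csf1r was at -0.26 ± 0.05, but its other probes gave 0.13 and 0.19, so its direction is not settled. Their part in the Tlr4 and Cd14 values was not tested.

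Cd180, the B cell relative of Tlr4, had 2 measured probes that disagreed. The RefSeq probe read 588 with miR-181b and 512 in the control on array 1, and 572 and 443 on array 2. This probe was brighter in the miR-181b RNA on each array. Its ratio was 0.20 and 0.37, with a mean of 0.28 ± 0.09, or 1.22-fold higher, the highest of the family. A higher mean was seen in 6.44% of all measured probes, and 15.5% of probes of similar intensity differed by more. Without loess it was 0.05, which is 0.23 above the median of all probes and 0.29 above that of its intensity decile.

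The other Cd180 probe, designed on a cDNA clone from activated spleen, read 2096 and 1838 on array 1, and 1649 and 2061 on array 2. Here the order of the RNAs turned with the dyes. The ratio was 0.19 on array 1 and -0.32 on array 2, with a mean of -0.07 ± 0.26, the largest distance between arrays among the members. The Cd180 probes thus agreed on array 1, where they differed by 0.01, and differed by 0.69 on array 2. Among 5752 genes with more than 1 measured probe, the median range between probes on array 2 was 0.27, and 11% had a range at least as large as that of Cd180. The direction of Cd180 is therefore not settled by these probes.

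Ly86, the MD-1 partner of Cd180, had a saturated probe. On array 1 it read 47213 with miR-181b and 48756 in the control, and on array 2 the readings were 41051 and 42300. In Cy5 all 62 pixels of the spot were saturated on both arrays, and in Cy3 none was (0 of 62). Each RNA was therefore saturated on 1 of the 2 arrays, in opposite ways. The ratio was -0.05 and -0.04, with a mean of -0.04, and this close agreement includes a saturated channel on each array. Without loess it was -0.48, or -0.29 relative to all probes and -0.08 relative to its intensity decile.

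The endosomal receptors Tlr7 and Tlr9 were both higher in the miR-181b RNA on each array, by small amounts. Without loess both were below 0, as was the median of all probes (-0.182). Tlr7, the receptor for single-stranded RNA, read 6371 with miR-181b and 6042 in the control on array 1, and 6418 and 5147 on array 2. Its ratio was 0.08 and 0.32, with a mean of 0.20 ± 0.12. Tlr9, the receptor for CpG DNA, read 1475 and 1337 on array 1, and 1545 and 1300 on array 2. The ratio of Tlr9 was 0.14 and 0.25, with a mean of 0.20 ± 0.05, or 1.15-fold higher. Among probes of similar intensity, 28.4% differed by more than Tlr7 and 34.4% by more than Tlr9. Without loess Tlr7 was at -0.18 and Tlr9 at -0.12, which are 0.00 and 0.07 above the median of all probes. Against the median of their intensity deciles they were 0.19 and 0.17 higher.

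**Figure D3:**
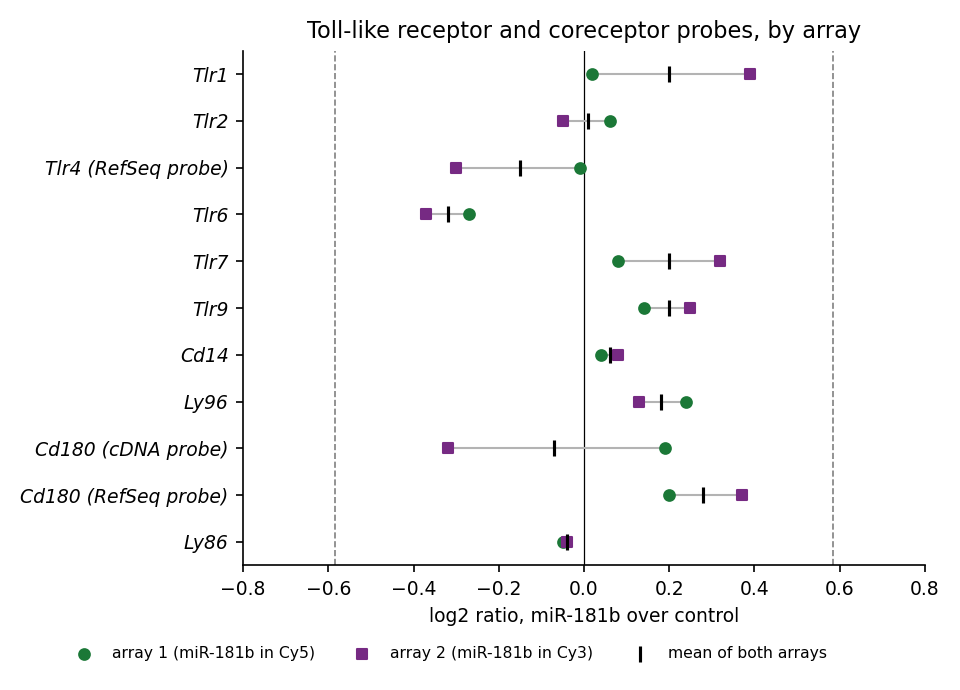
Log2 ratio of miR-181b over control for the 11 measured probes on array 1 (green circles) and array 2 (purple squares), with the mean as a black bar; dashed lines mark 1.5-fold. All values lie inside the dashed lines; Tlr6 is below 0 on both arrays, Tlr9, Ly96 and the RefSeq probe of Cd180 are above 0 on both, and the cDNA probe of Cd180 spans from 0.19 to -0.32.

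In order of their mean ratios the probes ran Tlr6 (-0.32), Tlr4 (-0.15), Cd180 cDNA (-0.07), Ly86 (-0.04), Tlr2 (0.01), Cd14 (0.06), Ly96 (0.18), Tlr9, Tlr7 and Tlr1 (each 0.20) and Cd180 RefSeq (0.28). The array ranges of Ly96, Tlr9, Tlr7, Tlr1 and Cd180 RefSeq overlapped, so their order is not settled. The place of Ly86 is not measured, since 1 of its channels was saturated on each array. Tlr6 and Tlr4 also overlapped, through array 2. The Tlr6 values lay below those of every other measured member except Tlr4 and the cDNA probe of Cd180. For 2 of the 11 probes, Tlr2 and Cd180 cDNA, the distance of the arrays from the mean was at least as large as the mean. With 2 arrays this is the same as opposite signs, which 50% of all measured probes had. The median distance for the members was 0.06, against 0.10 for all measured probes.

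**Figure D4:**
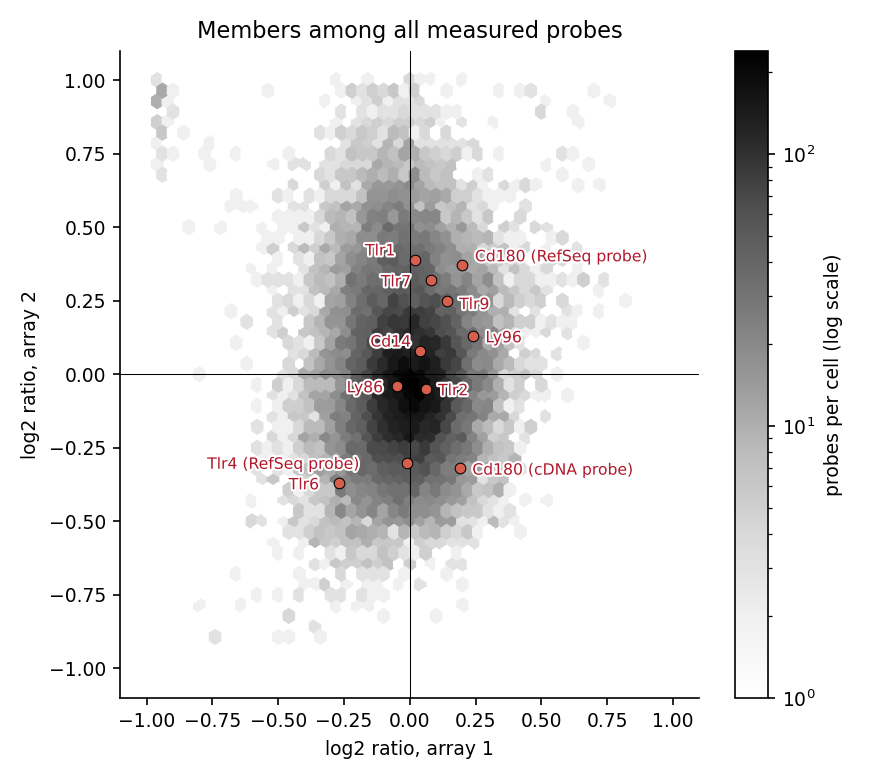
Log2 ratio on array 1 (x axis) against array 2 (y axis) for all measured probes (grey cells, shaded by the log of the number of probes) and the 11 member probes (red); 336 probes beyond 1.0 on either axis are not drawn. The members lie inside the cloud of all probes, with Tlr6 at its lower left and the RefSeq probe of Cd180 at its upper right.

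Beyond these 10 genes, 79 genes of the pathway in 6 lists were examined, of which 69 were measured. None of the 69 was counted as 1.5-fold higher (0 of 69, against 0.819% of all measured genes) or lower (0 of 69, against 0.512%), using the brightest probe of each gene. Over all genes 144 were counted as higher and 90 as lower, a split that became 6 and 908 without loess. On both arrays 17 were higher, against 24.4% of all genes, and 15 were lower, against 27.4%. Their median ratio was 0.07, against -0.01 for all measured genes. Of the other Toll-like receptors, Tlr5, the flagellin receptor, was at 0.07 and -0.08. Tlr3, which senses double-stranded RNA, had no probe well above background in all 4 readings, and Tlr8 had none in any. Tlr11, Tlr12 and Tlr13 are counted among the 79 genes, but no probe on the array was found under these names.

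Among 24 adaptors and kinases, all measured, 9 were higher and 3 lower on both arrays, against 24.4% and 27.4% of all genes. Their median of 0.13 came from -0.04 on array 1 and 0.26 on array 2, so the list has no settled direction. Ticam1, which encodes the adaptor TRIF of Tlr3 and Tlr4, was at 0.41 ± 0.36 (0.05 and 0.76), and its other probe gave 0.37. Tirap, the adaptor that brings MyD88 to Tlr2 and Tlr4, was at 0.29 ± 0.13 (0.43 and 0.16), with 0.30 from its other probe. Ube2v1, a cofactor of ubiquitin chain assembly by Traf6, was at 0.27 ± 0.26, with 0.19 and 0.21 from its other probes. Myd88 itself, added after its value was seen, was at 0.17 ± 0.10. Without loess Ticam1 was at 0.06, Tirap at -0.02 and Ube2v1 at -0.14, against -0.20 for all genes.

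Of 13 genes for ligand transfer, chaperones and trafficking, 12 were measured and had a median of 0.09 (array 1 -0.01, array 2 0.17). On both arrays 5 were higher and 2 lower, where all genes gave 24.4% and 27.4%. Lgmn, an endosomal protease that processes nucleic acid-sensing receptors, was at 0.40 ± 0.30. Cd36, a lipid scavenger receptor that assists Tlr2, was at 0.24 ± 0.08, and its other probe gave 0.47. Cnpy4 was at -0.18 ± 0.11, and its other probe gave -0.05. Without loess these were at -0.01, -0.14 and -0.54, against -0.20 for all genes. Unc93b1, the transporter of endosomal receptors, was named outside the rule of the same sign on both arrays. It was saturated and had opposite signs (-0.25 and 0.46), and its other probe gave 0.35.

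Of the inhibitors of the pathway 15 were measured. On both arrays 7 of them were lower and 1 was higher (27.4% and 24.4% of all genes). Their median was -0.06 (array 1 -0.05, array 2 -0.06). Without loess the list median was -0.47, against -0.20 for all genes, a difference of -0.27. Sigirr, a receptor that dampens Toll-like receptor signals, was at -0.26 ± 0.07, and Atf3, an LPS-induced repressor, at -0.17 ± 0.09. Irak3, the inhibitory IRAK kinase, was at 0.35 ± 0.29, and its other probes gave 0.16 and 0.44. Without loess Sigirr was at -0.62, Atf3 at -0.53 and Irak3 at 0.02.

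Of 10 transcription factors downstream of the receptors, 9 were measured, while the NF-kappaB subunit gene Rel was not. On both arrays 1 was higher (24.4% of all genes) and 0 were lower (27.4%). That gene was Nfkbiz, an inducible nuclear regulator of NF-kappaB, at 0.07 ± 0.01 (-0.31 without loess, against -0.20 for all genes). Irf7, named after its value was seen, had a mean of 0.60 but values of -0.03 on array 1 and 1.22 on array 2. In the list of cytoplasmic and lectin receptors, 8 were measured, while the lectin receptor gene Clec7a and Aim2 were not. Of those measured, 1 was higher and 3 were lower on both arrays, again beside 24.4% and 27.4% of all genes. These 3 were the RNA sensor gene Ifih1 (-0.17 ± 0.05, with 0.04 from its other probe), the inflammasome gene Nlrp3 (-0.09 ± 0.02) and the adaptor gene Sting1 (-0.09 ± 0.07). Without loess they were at -0.53, -0.18 and -0.51, against -0.20 for all genes.

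**Figure D5:**
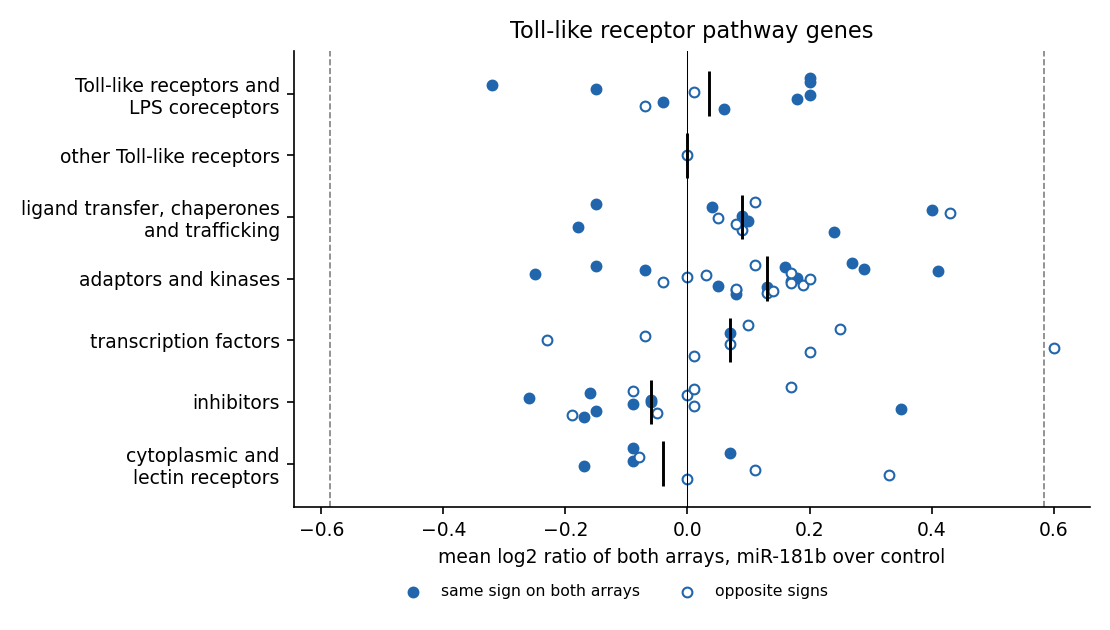
Mean log2 ratio of both arrays for each measured gene of the 10 receptors and coreceptors and of 6 pathway lists (brightest probe of a gene), filled where both arrays had the same sign and open where they did not; black bars are list medians and dashed lines mark 1.5-fold. No filled point lies beyond the dashed lines, and the list medians lie between -0.06 and 0.13.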

How the data were processed

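The deposited intensity values, per the file headers, were made by the scanner software Agilent Feature Extraction (version 9.1.3.1), which measured the mean of each spot and the median of its surroundings in Cy3 and Cy5. The deposited log10 ratios are Cy5 over Cy3 after the software had subtracted background and fitted a lowess dye trend, per the file headers. A value table was also deposited by the authors, in log2. Against the software's processed signals it agreed within 0.0001 for 40929 of 40929 probes with 1 spot once array 2 had its sign turned, apart from constants (0.0011, 0.0327), so its scale and direction are known. Its columns had medians of -0.063 and -0.07. Ratios were computed here with limma 3.58.1 in R 4.3.3: normexp (offset 50), loess within arrays with control spots at weight 0, and outlier spots left out (7 and 21). Saturated spots were kept. Spots were averaged by probe. Probes took RefSeq names through accession (22951), symbol (6659) or synonym (3109), and 8455 kept the name in the file; all 12 member probes have the same name in both. Of several probes of a pathway gene the brightest was used. From each pathway list up to 3 genes of the same sign on both arrays with the largest mean were named. Members and lists were chosen with earlier results of these data known. The steps were tested on simulated data. Alternatives changed the background correction, the normalisation, the filters, the arrays used, the threshold and the probe choice. Precision is limited by there being 2 arrays. The array's genome build is not given in the sources used here, so positions are left out.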

Additional observations from a re-analysis of the deposited data

How the results depend on the processing

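The counts of member probes at least 1.5-fold higher or lower were 0 in every setting tried, including each array alone. The median ratio of the measured member probes, 0.06, became 0.09 without background correction, 0.09 with a normexp offset of 10, 0.17 when the log ratio of the scanner software was used, 0.19 in the authors' deposited table (9 member probes matched), 0.04 with no filter on dim probes, 0.12 without saturated probes, and -0.18 with median centring in place of loess, where the median of all probes was -0.182. On each array alone it was between 0.06 and 0.08. Leaving out the filter adds the dim Tlr4 probe and leaving out saturated probes removes Ly86. Only probes with 1 spot were matched to the deposited table, which removes Tlr2 (0.01 in the main setting) and Tlr4 (-0.15). The median of 0.19 is therefore over a different set of probes from that of 0.06. Otherwise the cause of these shifts was not tested. The number of pathway genes at least 1.5-fold lower became 1 with median centring (Sigirr, 1.45% of pathway genes, against 5.17% of all genes). On array 1 alone it was 1 (Nfkbia, 1.45%, against 1.58%), and on array 2 alone 0 (against 1.47%). Nfkbia was saturated and read -0.76 on array 1 and 0.78 on array 2, where it was counted as higher. The number at least 1.5-fold higher was 0 on array 1 alone, against 0.592% of all genes, and 8 on array 2 alone. The 8 on array 2 were 11.6% of the pathway genes, against 5.03% of all genes on that array. Of these, Ddx58 (-0.17), Hsp90b1 (-0.39, saturated), Irf7 (-0.03), Pik3ap1 (-0.23) and Nfkbia were below 0 on array 1. The others, Irak3 (0.05), Lgmn (0.09) and Ticam1 (0.05), were slightly above 0 there. With median centring 8 of 11 member probe values moved beyond the spread of the arrays, and 5 changed sign. In the other settings with both arrays 6 of 74 moved beyond it and 2 changed sign, both for Tlr2. On each array alone 2 of 22 changed sign. No paired analysis was possible because there is 1 RNA sample per vector.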
